A study of Mus musculus with 45 samples.

Results

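The mitochondrial ribosomal proteins are the nuclear-encoded proteins of the ribosome inside mitochondria, and their mRNAs were followed here in NIH-3T3, an established line of mouse embryonic fibroblasts. A gene was taken as a member when a probe set carried its symbol alone and the symbol began with Mrpl (large subunit) or Mrps (small subunit) followed by a digit. This gave 76 of the 13232 genes measured by a probe set of 1 symbol: 47 of the large and 29 of the small subunit. They were covered by 150 of the 31451 probe sets, and each gene is given by the probe set with the highest mean over all 45 arrays. The rule sets no group against another, but it is not neutral between new and total RNA. Most of the 45 arrays hold total or pre-existing RNA, so the highest mean favours probe sets that are high there. For Mrps9 at 30 min, the probe set taken averaged 7.37 in new and 7.98 in total RNA. One passed over averaged 7.89 and 4.70. Mrpl30 and Mrpl53 had no probe set of 1 symbol and were not analysed here.

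The proteins are made in the cytosol from nuclear mRNAs, imported, and assembled with mitochondrial rRNA into a small subunit, which reads the mRNA, and a large subunit, which joins amino acids. This ribosome makes the few membrane proteins that mitochondrial DNA encodes, all of them parts of the respiratory chain. The symbols follow an early naming, so some proteins sit elsewhere than their symbol says: the products of Mrps18a and Mrps30 are found in the large subunit, and the product of Mrps36 is now assigned to the 2-oxoglutarate dehydrogenase complex.

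Cells of passage 5 to 15 were seeded at 40% density 24 h ahead and were at 80% at the start. Newly transcribed RNA, the RNA that had taken up 4-thiouridine (4sU), was measured after 15 min (3 arrays) and 30 min (9 arrays) with 500 µM 4sU, after 60 min with 200 µM 4sU (3 arrays), and after 60 min with 200 µM in an experiment named 2F (3 arrays). Unlabelled pre-existing RNA was measured after 60 min with 200 µM 4sU (3 arrays). Total RNA was measured beside it at 30 min (9 arrays), 60 min (3 arrays) and 60 min 2F (3 arrays), and, with no 4sU named, in an actinomycin D series (5 µg/ml) sampled before the drug, at 1 h and at 2 h (3 arrays each), in which transcription is blocked. The labels explain neither 2F nor the word mock, which the titles at 15 min and 60 min carry and those at 30 min do not. All groups are 1 cell line, and the labels do not say whether arrays came from separate cultures, so p-values measure the spread between these arrays, which may be technical. In cultured cells a smaller number of cells and less RNA per cell cannot be told apart.

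The values are log2 of deposited intensities, and a level can be set against another level of the same probe set only. Intensities are not amounts of RNA per cell, so a change of new over total RNA is relative to the other transcripts on the arrays. The median intensity of an array ranged from 22.8 to 40.25, so the arrays did not share 1 median. A call needed a fold change of at least 2 and a limma p below 0.05 after adjustment over every probe set in the fit. Before actinomycin D, 9 of 9 measured fibroblast markers had a mean log2 level of 5 or more (10.14 to 14.17), and none of the 6 measured markers of epithelium, leukocytes, endothelium and muscle did (2.26 to 3.37). Arrays of 1 group correlated with a median of 0.946 or more in total RNA outside the 60 min experiment, while the lowest values were 0.904 for total RNA replicate 2 and 0.861 for new RNA replicate 1, both at 60 min. The 9 arrays at 30 min fell into 3 sets by their numbers (1, 4, 7; 2, 5, 8; 3, 6, 9): deviations from the group mean correlated at 0.428 to 0.729 within a set in new RNA and at 0.624 to 0.901 in total RNA, with medians of -0.59 and -0.416 between sets. The p-values at 30 min count all 9 arrays, so the p-values printed for single genes there are followed by those with the arrays of a set averaged. SEs of new over total RNA at 30 min also count all 9 arrays. With the arrays of a set averaged they were larger, such as 0.31 against 0.18 for Mrpl44 and 0.22 against 0.15 for Mrps25.

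Promoter sequence is shown for 4 members whose mRNAs behaved differently below: Mrpl44 and Mrps2, which were called higher in new than in total RNA at 60 min 2F and lower after 2 h of actinomycin D, and Mrpl42 and Mrps25, which were among the lowest in new over total RNA at 60 min. The lines give the 150 bases before the annotated start, 5′ to 3′ on the gene's strand, from RefSeq on GRCm38.p6, at chr1:79775868-79776017 (plus strand) for Mrpl44, chr2:28467916-28468065 (plus) for Mrps2, chr10:95501950-95502099 (minus) for Mrpl42 and chr6:92184024-92184173 (minus) for Mrps25. Capitals mark a match to the NRF1 string, GCGCA and GCGC with any 1 base between them, on either strand.
Mrpl44: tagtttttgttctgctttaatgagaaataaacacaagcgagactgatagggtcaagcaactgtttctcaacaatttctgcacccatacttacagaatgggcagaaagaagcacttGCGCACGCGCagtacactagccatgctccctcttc
Mrps2: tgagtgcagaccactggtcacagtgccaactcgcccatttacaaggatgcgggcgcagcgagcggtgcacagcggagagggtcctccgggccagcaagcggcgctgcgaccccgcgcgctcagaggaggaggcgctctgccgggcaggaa
Mrpl42: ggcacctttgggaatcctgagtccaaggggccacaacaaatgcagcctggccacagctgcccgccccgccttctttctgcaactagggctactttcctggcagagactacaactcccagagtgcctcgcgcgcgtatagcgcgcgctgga
Mrps25: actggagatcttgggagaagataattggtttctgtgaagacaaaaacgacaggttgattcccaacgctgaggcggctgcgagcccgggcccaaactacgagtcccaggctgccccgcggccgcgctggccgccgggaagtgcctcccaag

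Of the 76 members, 67 had a promoter in the RefSeq table. Over 300 bases (250 before the start and 50 after it), the NRF1 string was in 17.9% of the members' promoters and in 4.78% of all 27025 promoters. The ETS string CCGGAAG was in 35.8% of the members' promoters and 9.12% of all, and the YY1 string AANATGGCG in 16.4% and 2.51%. TATAAA was in 5.97% of the members' promoters and 14.2% of all. Both strands were read, and an ETS and a YY1 string can share letters where they adjoin. NRF1 and the ETS factor GABP are known regulators of nuclear genes for mitochondrial proteins. These matches describe the letters only. Of the 4 windows printed, that of Mrpl44 held the NRF1 string, and none held the ETS, YY1 or TATAAA string.

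The subunits were compared over all 11 groups by the median log2 level of their members on each array, taken relative to each subunit's own mean over the 45 arrays. In new RNA the large subunit averaged -0.91 ± 0.07 at 15 min (SD, n = 3), -0.93 ± 0.23 at 30 min (n = 9), -0.57 ± 0.23 at 60 min (n = 3) and -0.67 ± 0.17 at 60 min 2F (n = 3). The small subunit averaged -0.96 ± 0.07, -0.93 ± 0.31, -0.67 ± 0.35 and -0.79 ± 0.10 in the same groups. In pre-existing RNA the large subunit stood at 0.74 ± 0.09 and the small at 0.83 ± 0.06. In total RNA the large subunit averaged 0.47 ± 0.08 at 30 min, 0.30 ± 0.26 at 60 min and 0.45 ± 0.04 at 60 min 2F, and the small subunit 0.46 ± 0.13, 0.30 ± 0.31 and 0.49 ± 0.07. In the actinomycin D series the large subunit stood at 0.52 ± 0.07 before the drug, 0.85 ± 0.08 at 1 h and 0.66 ± 0.007 at 2 h, and the small subunit at 0.58 ± 0.05, 0.83 ± 0.06 and 0.71 ± 0.05 (SD, n = 3 each). All arrays of new RNA lay below all arrays of total and pre-existing RNA for both subunits.

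The large subunit minus the small, array by array, averaged between -0.10 ± 0.09 in pre-existing RNA and 0.12 ± 0.09 in new RNA at 60 min 2F (SD, n = 3 each). At 30 min this difference was 0.01 ± 0.11 in new RNA and 0.01 ± 0.09 in total RNA (n = 9 each). The difference was of the size of its SD in most groups, and the spread over genes within a subunit was much wider: at 30 min the new over total change had an SD over genes of 0.85 in the large and 0.79 in the small subunit. Within new RNA at 30 min, arrays 1, 4 and 7 stood apart. Their large subunit medians were -0.65 to -0.61, against -1.22 to -1.003 on the other arrays, and their small subunit medians were -0.60 to -0.49, against -1.25 to -0.98.

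**Figure D1:**
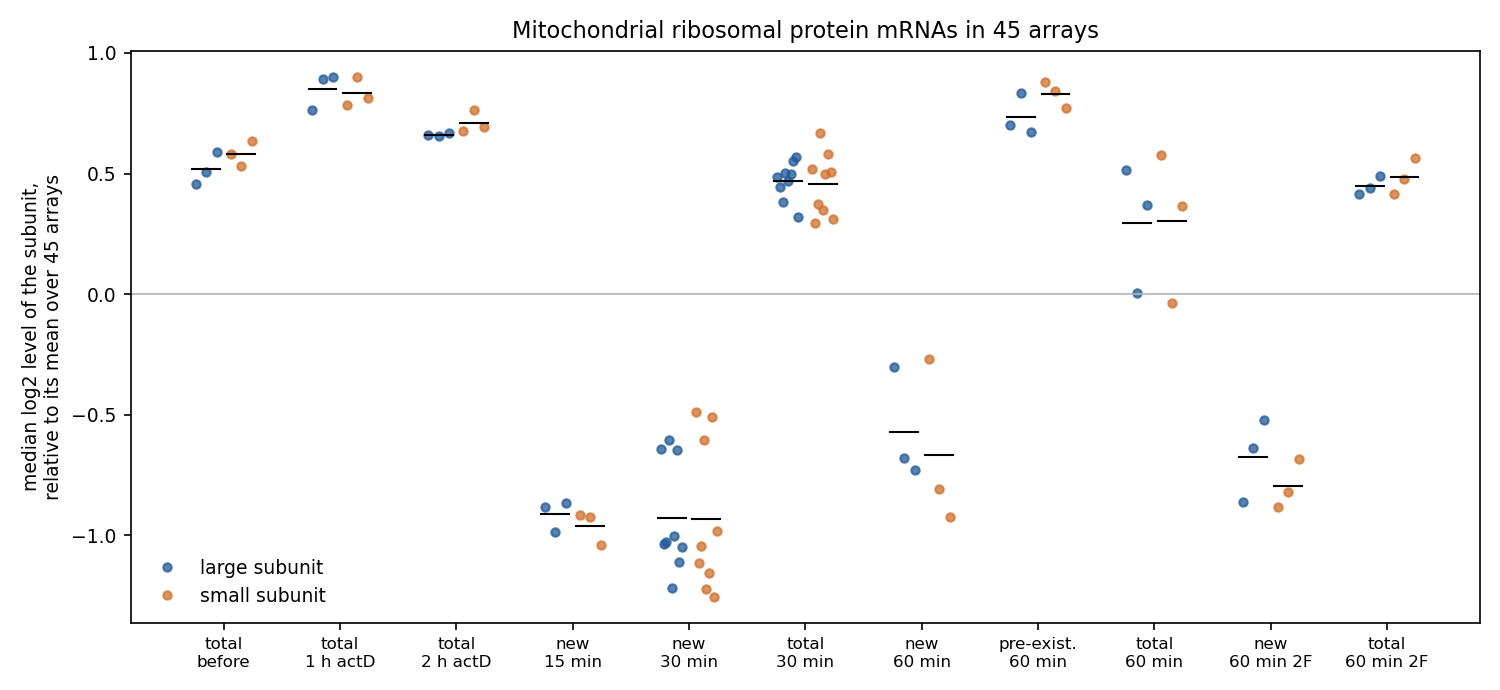
Median log2 level of the large subunit (blue) and small subunit (orange) mRNAs on each of the 45 arrays, relative to each subunit's mean over all arrays (y axis), for the 11 groups (x axis). Points are arrays and black lines are group means. New RNA arrays lie below 0 and below all other arrays for both subunits, while the subunit means of a group differ by at most 0.12.

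Mitochondrial ribosomal protein mRNAs made up less of the new RNA than of the total RNA at 30 min. Of 75 members tested, 53 were called lower in new RNA and 0 higher, while 25.6% of all 16044 probe sets were called lower and 23.7% higher. The median log2 change, new over total, was -1.33 over the members (-1.39 large, -1.31 small) and -0.14 over all probe sets. Here and below, all probe sets include the dimmer ones of a gene, while a member is given by the one of highest mean. A share over 1 probe set per gene was not computed. With all probe sets of a gene averaged, 33 members were called lower (median -0.87). By subunit, 33 of 46 large and 20 of 29 small subunit members were called lower. With the arrays of a set averaged the same 53 were called, and without arrays 1, 4 and 7 there were 54, of which 51 were among them. Mrpl55 did not pass the filter of a mean log2 level of 5 and was not tested.

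The lowest members with a mean level of 7 or more were Mrps25, Mrpl54, Mrps28, Mrpl23 and Mrps24, between -2.54 and -2.34. Mrps25, a protein of the small subunit with no bacterial counterpart, had log2 levels of 5.36, 5.72 and 6.43 in new RNA at 30 min (lowest, median, highest of 9 arrays), against 7.86, 8.26 and 8.79 in total RNA. The ranges were far apart, and the log2 change was -2.54 ± 0.15 (SE, limma adjusted p = 5.8e-12, or 0.00012 with the arrays of a set averaged). Mrpl23, which sits at the exit tunnel of the large subunit, changed by -2.46, Mrpl54 by -2.48, Mrps28 by -2.47 and Mrps24 by -2.34. The 5 members with a lower change were read by dimmer probe sets and are named after their values were seen: Mrpl14 (-3.34, with new RNA levels of 3.97 to 4.49), Mrps11 (-3.02), Mrpl48 (-2.96), Mrpl37 (-2.89) and Mrpl34 (-2.85).

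At the other end, among members with a mean level of 7 or more, stood Mrpl44, Mrps2, Mrpl16, Mrps18b and Mrpl33. Mrpl50, under that level, changed by -0.02. Mrpl44, a large subunit protein with a ribonuclease III-like fold, had levels of 8.53, 8.94 and 9.52 in new RNA at 30 min (lowest, median, highest), against 7.47, 8.23 and 8.77 in total RNA. The ranges overlapped, and the change of 0.85 ± 0.18 (SE, limma adjusted p = 0.00025, or 0.0453 with the arrays of a set averaged) was under the 2-fold threshold. Mrps2, the counterpart of bacterial ribosomal protein S2, had 9.45, 9.84 and 10.40 in new RNA, against 9.16, 9.33 and 9.47 in total RNA, a change of 0.59 ± 0.13 (limma adjusted p = 0.0003, or 0.0619 with the arrays of a set averaged, which is over the threshold). Its lowest new RNA array lay just under its highest total RNA array. Other probe sets of these genes were lower or changed sign: those of Mrpl44 changed by 0.69, 0.12 and -0.099, and the other one of Mrps2 by -0.33 ± 0.33 (SE). Mrpl16, near the catalytic centre of the large subunit, changed by 0.07 ± 0.15, Mrps18b by -0.16 ± 0.17 and Mrpl33 by -0.31 ± 0.12 (SE). With the arrays of a set averaged these SEs were 0.27, 0.30 and 0.22. The 3 proteins of the S18 family thus differed: Mrps18a changed by -1.66 and Mrps18c by -1.30, both called lower, and Mrps18b was not called.

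**Figure D2:**
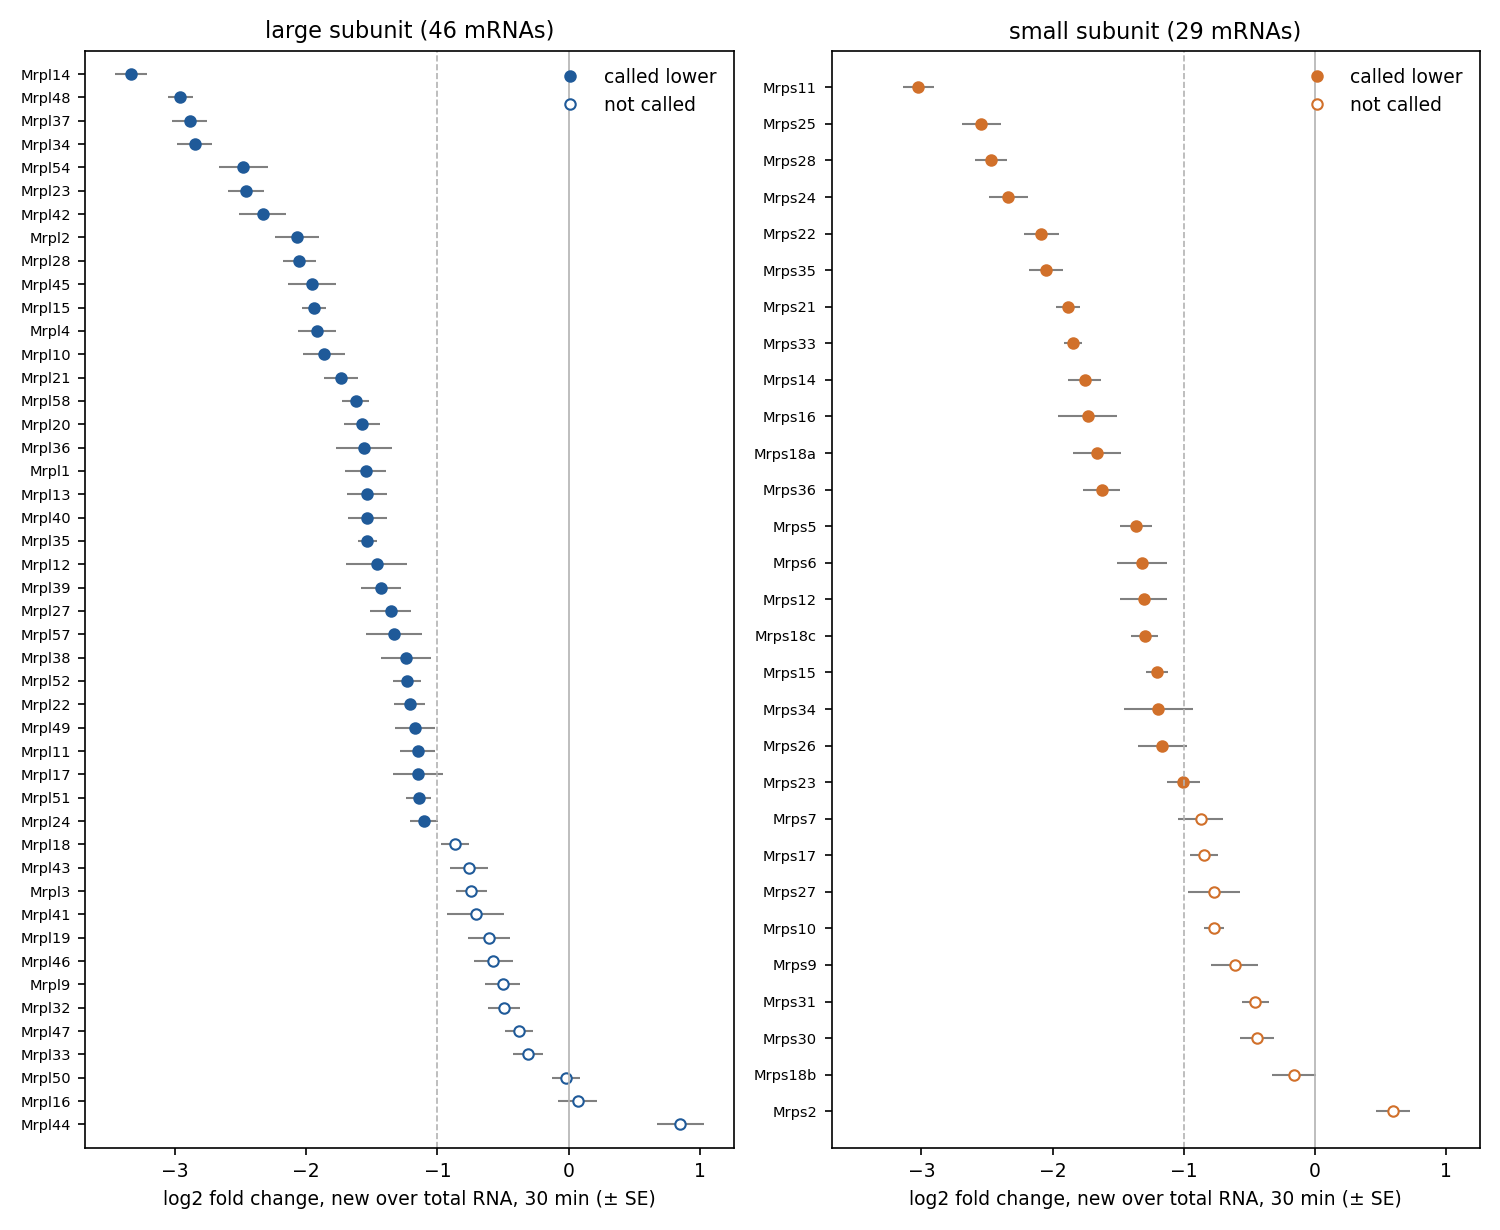
Log2 fold change of new over total RNA at 30 min (x axis) for each tested member (y axis), large subunit left and small subunit right. Bars are limma standard errors that count all 9 arrays of each group, with the arrays of a set not averaged. Filled points are called lower, the dashed line marks a 2-fold decrease, and Mrpl44 and Mrps2 are the members furthest above 0.

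The 60 min experiments used arrays of their own. At 60 min 2F, 45 of 75 members were called lower in new than in total RNA and 2 higher, while 21.8% of all probe sets were called lower and 24% higher. The median change was -1.14 over the members (-1.08 large, -1.16 small) and 0.04 over all probe sets. In the other 60 min experiment 35 of 75 were called lower and 0 higher, against 21.8% and 17.7% of all probe sets, with a median of -0.97 (-0.95 large, -0.97 small) and -0.14 over all probe sets. Across the 75 members the changes at 30 min and at 60 min 2F correlated with r = 0.91, a description over genes that share a platform and a normalisation. Of the 53 members called lower at 30 min, 43 were also called at 60 min 2F, 81.1% of the 30 min list and 95.6% of the 2F list. Over all probe sets these shares were 71.7% and 88.9%. In all, 30 members were called lower in all 3 experiments (18 large, 12 small) and 17 in none, 40% and 22.7% of 75, beside 13.6% and 65.4% of the 14763 probe sets tested in all 3.

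The 17 members called lower in none of the 3 experiments were Mrpl9, Mrpl16, Mrpl18, Mrpl19, Mrpl32, Mrpl33, Mrpl41, Mrpl43, Mrpl44, Mrpl46, Mrpl47, Mrpl50, Mrps2, Mrps7, Mrps18b, Mrps30 and Mrps31. Mrps2 and Mrpl44 were the 2 called higher at 60 min 2F. Mrps2 had 10.26, 10.37 and 10.39 in new RNA, against 9.28, 9.33 and 9.33 in total RNA, a change of 1.03 ± 0.08 (SE, limma adjusted p = 3.6e-06). Every new RNA array lay above every total RNA array. Mrpl44 had 9.17, 9.44 and 9.28 in new RNA, against 7.83, 7.96 and 8.08 in total RNA, a change of 1.34 ± 0.11 (adjusted p = 3.1e-06), again with no overlap. The other probe set of Mrps2 changed by 0.086, and those of Mrpl44 by 1.37, 0.62 and 0.52. In the other 60 min experiment Mrpl44 changed by 0.94 ± 0.30 (adjusted p = 0.0282) and Mrps2 by 0.61 ± 0.30 (adjusted p = 0.1234). The call of Mrps2 at 60 min 2F was lost with each array centred on its median (0.85), and both were lost with all probe sets of a gene averaged (0.56 for Mrps2 and 0.96 for Mrpl44).

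Mrpl42, a large subunit protein with no bacterial counterpart, was the lowest at 60 min. It had 6.56, 6.71 and 6.41 in new RNA, against 10.42, 9.75 and 10.57 in total RNA, a change of -3.69 ± 0.27 (SE, limma adjusted p = 5.4e-05). At 60 min 2F it had 7.56, 7.43 and 7.58 in new RNA, against 10.34, 10.34 and 10.42 in total RNA, a change of -2.84 ± 0.09 (adjusted p = 8.4e-08). The new RNA arrays were more than 2 log2 units under the total RNA arrays in both experiments. Mrpl23 changed by -2.69 at 60 min and by -3.21 at 60 min 2F, and Mrps25 by -2.40 and -2.81.

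Pre-existing RNA, the unlabelled remainder at 60 min, was set against total RNA. No member was called in either direction by limma, 11 of 75 had an unadjusted p below 0.05 (27.7% of all probe sets did), and 6.96% of all probe sets were called lower and 1.87% higher. The median change, pre-existing over total, was 0.34 over the members and 0.11 over all probe sets, with 65 members above 0. The highest were Mrpl54 (1.81 ± 0.64), Mrps12 (1.39 ± 0.47), the decoding-centre protein of the small subunit, and Mrps28 (1.22 ± 0.42), and the lowest among bright members were Mrpl39 (-0.42 ± 0.31) and Mrps2 (-0.36 ± 0.30, SE). These rest on the total RNA arrays at 60 min, which agreed least among the total RNA groups: Mrpl54 had 8.80, 8.79 and 8.70 in pre-existing RNA, against 8.02, 5.55 and 7.29 in total RNA. One member was called higher with the replicate number as a block, 5 without total RNA replicate 1 and 10 with all 45 arrays in 1 fit.

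The actinomycin D series shows which mRNAs fall when no new RNA is made. After 1 h no member was called by limma with the 2-fold threshold, and after 2 h 3 of 76 were called lower and 0 higher. Of all 15060 probe sets, 3.58% were called lower and 2.57% higher at 1 h, and 9.42% lower and 0.538% higher at 2 h. By adjusted p alone, 33 members were higher and 0 lower at 1 h (21.9% and 14.4% of all probe sets), and 13 were higher and 8 lower at 2 h (16% and 18.7%). An unadjusted p below 0.05 was reached by 38 of 76 members at 1 h and by 31 at 2 h, beside 46.7% and 45.7% of all probe sets. The members' median log2 change was 0.29 at 1 h and 0.12 at 2 h, beside 0.09 and 0.10 over all probe sets. With each array centred on its median, the median at 2 h was 0.46 over the members and 0.43 over all probe sets, so the changes below are relative to the other mRNAs.

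Mrpl44 fell most. It had 8.03, 8.37 and 8.24 before actinomycin D, 7.61, 8.07 and 7.99 at 1 h, and 4.74, 5.44 and 6.23 at 2 h. The arrays at 2 h were all below those before and at 1 h, and the change at 2 h was -2.74 ± 0.31 (SE, limma adjusted p = 0.0001). Its 3 other probe sets changed by -3.99, -2.89 and -3.09 at 2 h. At 1 h the change was -0.33 ± 0.31 (adjusted p = 0.434).

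Mrps2 had 9.23, 9.50 and 9.38 before, 9.24, 9.22 and 8.92 at 1 h, and 7.94, 8.37 and 8.42 at 2 h, a change at 2 h of -1.12 ± 0.15 (SE, limma adjusted p = 0.0004). Its other probe set changed by -1.20. The call was lost with each array centred on its median (-0.79) and without the 2 h array of replicate 1 (-0.97). Mrps31, a small subunit protein with no bacterial counterpart, had 7.77, 7.83 and 7.67 before, 7.93, 8.12 and 8.04 at 1 h, and 6.57, 7.01 and 6.57 at 2 h, a change at 2 h of -1.04 ± 0.14 (adjusted p = 0.00031). It was higher at 1 h and lower at 2 h than before, with no overlap at either time. Its call was lost with quantile normalisation (-0.89), with median centring (-0.70), with its probe sets averaged (-0.48), and without the 2 h array of replicate 1 or 3 (each -0.96).

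Next in order at 2 h were Mrpl1, the protein of the L1 stalk (-0.76 ± 0.12, SE), Mrpl46 (-0.75 ± 0.14) and Mrpl43 (-0.64 ± 0.11), each with an adjusted p under the threshold and a fold change under 2. The highest were Mrpl48 (0.70 ± 0.18), Mrpl23 (0.58 ± 0.14), Mrpl54 (0.52 ± 0.17), Mrps36 (0.52 ± 0.14) and Mrpl4 (0.47 ± 0.12). Mrpl48 had 8.22, 8.46 and 8.41 before, 8.53, 9.22 and 9.24 at 1 h, and 9.00, 9.11 and 9.09 at 2 h. All its arrays with actinomycin D lay above those before it.

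The change after 2 h of actinomycin D and the new over total change come from different arrays. Across 75 members the 2 h change correlated with the 30 min change at r = -0.61 and with the 60 min 2F change at r = -0.69, given as a description over genes. Without Mrps2 and Mrpl44 the first was -0.51. On the probe sets used, Mrpl44 and Mrps2 had the highest new over total changes at 30 min and 60 min 2F and the lowest changes after 2 h of actinomycin D, while the other probe set of Mrps2 was low after the drug and not higher in new RNA at 30 min. Mrpl1 was an exception, with a change of -1.55 in new over total RNA at 30 min and of -0.76 after 2 h of actinomycin D, but its other tested probe set changed by -0.011 and 0.055. Mrpl16 was another, at 0.07 and 0.06.

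**Figure D3:**
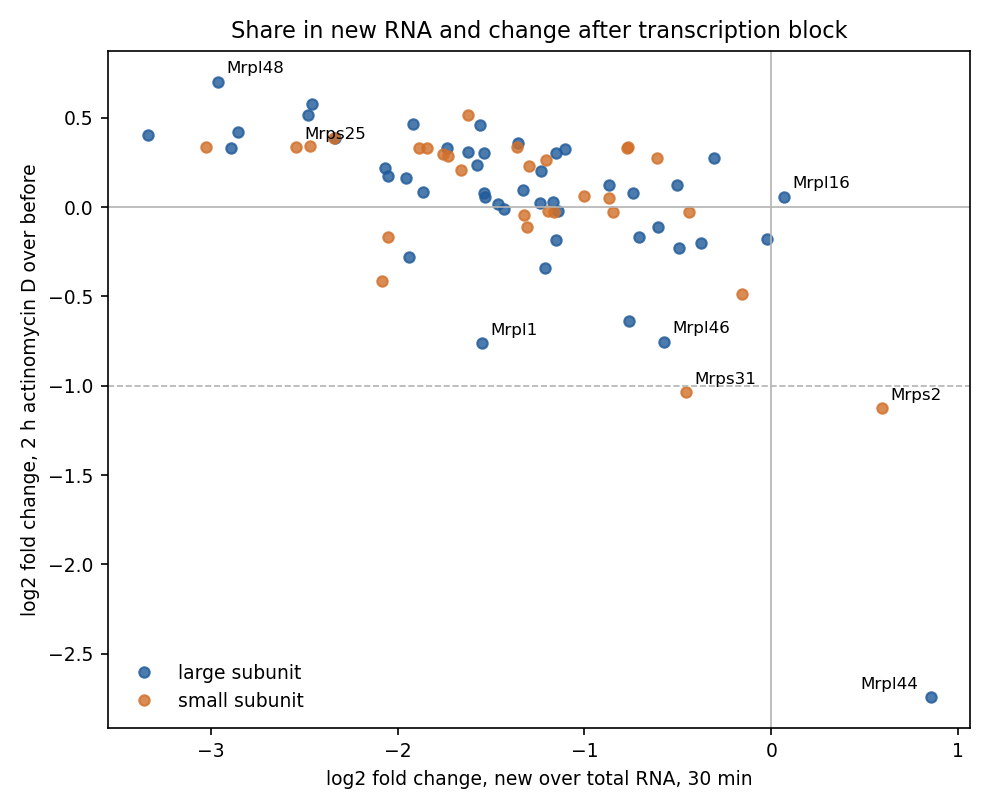
Log2 fold change after 2 h of actinomycin D over before (y axis, 3 arrays each) against log2 fold change of new over total RNA at 30 min (x axis, 9 arrays each) for 75 members, large subunit blue and small subunit orange. The dashed line marks a 2-fold decrease. Mrpl44, Mrps2 and Mrps31 lie below it, and most members lie left of 0 and near 0 on the y axis.

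**Figure D4:**
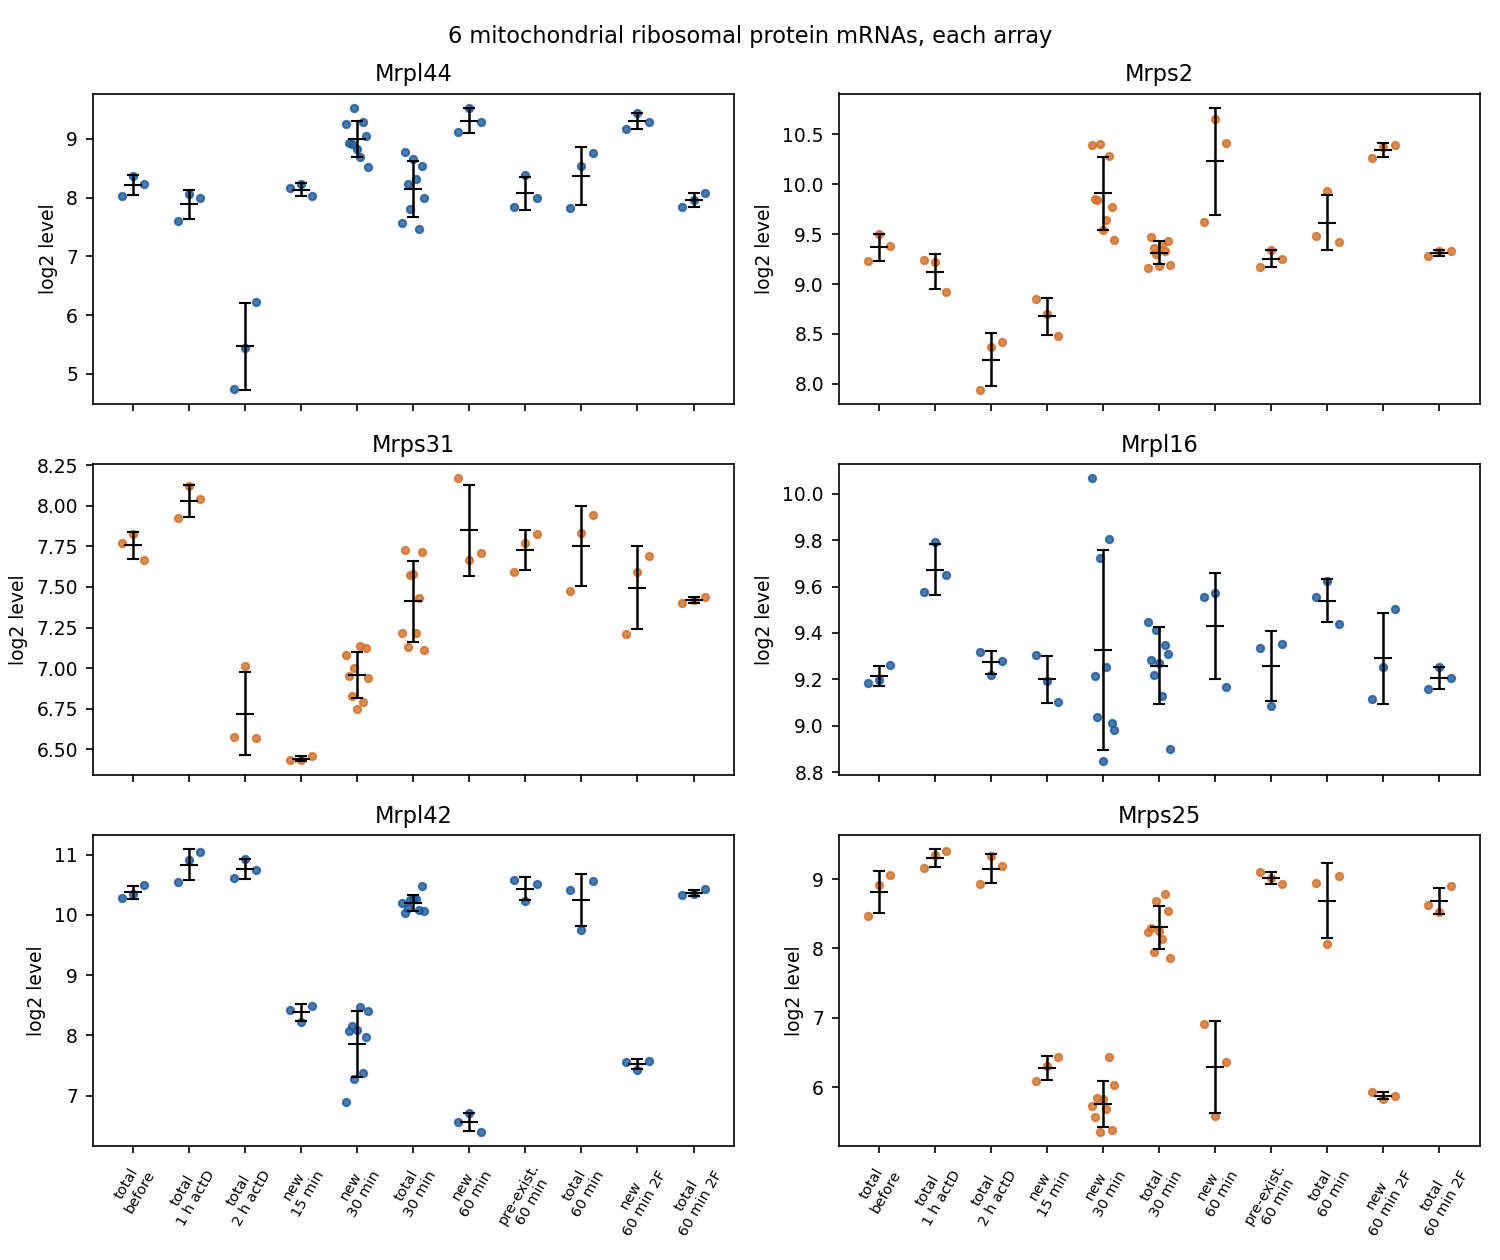
Log2 level (y axis) of 6 members on every array of the 11 groups (x axis). Points are arrays, black bars are means with SD, and each panel has its own y scale. Mrpl44 and Mrps2 average higher in new than in total RNA at 30 min and 60 min, are not high in new RNA at 15 min, and are low at 2 h of actinomycin D, while Mrpl42 and Mrps25 are low in new RNA and not lower at 2 h of actinomycin D.

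A half-life was sought from the 60 min experiment by scaling the labelled and unlabelled fractions so that their sum gives the total. That needs a falling line of pre-existing over total against new over total across probe sets. The line over 9047 probe sets had a slope of -0.0332 (r = -0.0881), and its slope was positive without total RNA replicate 1 (0.0878). The members' median was 46.9 h (44.4 h large, 51.3 h small) beside 28.9 h over all probe sets, but it ran from 17.1 h to 137 h when 1 array was left out and gave no value without total RNA replicate 1. These arrays therefore did not fix the scale, and no half-life is given for a single member.

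Labelling time was compared within new RNA. At 15 min against 30 min, 2 of 73 members were called lower and 1 higher, with 7.59% and 9.5% of all probe sets called. Mrps21 was higher, with 8.76, 9.04 and 9.01 at 15 min, against 7.38, 7.73 and 7.84 at 30 min (lowest, median, highest), a change of 1.31 ± 0.15 (SE, limma adjusted p = 1.5e-05, or 0.002 with the 30 min arrays of a set averaged). This call was lost with its probe sets averaged (0.90). Mrps2 was lower, with 8.85, 8.70 and 8.48 at 15 min, against 9.45, 9.84 and 10.40 at 30 min, a change of -1.23 ± 0.23 (adjusted p = 0.00054, or 0.0094 with the arrays of a set averaged). Neither pair of groups overlapped. Mrps27, which carries pentatricopeptide repeats, was lower by -1.25 ± 0.31, a call lost without the 15 min array of replicate 3 (-0.91) and without the 30 min arrays 1, 4 and 7 (-0.94).

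At 60 min against 30 min of labelling, 1 of 73 members was called lower and 2 higher, with 12.1% and 5.23% of all probe sets called. Mrpl42 was lower (-1.30 ± 0.27, SE, limma adjusted p = 0.0012, or 0.0061 with the arrays of a set averaged), with 6.56, 6.71 and 6.41 at 60 min, against 6.90, 8.07 and 8.48 at 30 min. Its highest 60 min array lay just under its lowest 30 min array. Mrpl12 (1.03 ± 0.36) and Mrpl20 (1.01 ± 0.23) were higher, and with the replicate number as a block 0 members were called higher. Mrpl12 was not called with the 30 min arrays of a set averaged. Both were lost without the 60 min array of replicate 1 (0.64 and 0.77). The higher count was 6 without new RNA replicate 2, 4 without replicate 3 and 7 without the 30 min arrays 1, 4 and 7. Label concentration also differed with time, 500 µM at 15 min and 30 min and 200 µM at 60 min. At 60 min, time, concentration and what the word mock marks cannot be told apart.

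The new over total change at 60 min was then set against that at 30 min in 1 fit. Of 75 members, 2 had a lower change at 60 min (Mrpl42 and Mrpl13) and 9 a higher one, with 11.8% of all probe sets called lower and 10.3% higher. With the 30 min arrays averaged in their 3 sets these counts were 1 and 1, and without arrays 1, 4 and 7 they were 2 and 19. Leaving out 1 array at 60 min moved the higher count from 2 (without total RNA replicate 2) to 17 (without total RNA replicate 1). For 60 min 2F against 30 min, 0 were lower and 2 higher (Mrpl1 and Mrpl45), with 2.19% and 1.62% of all probe sets called, and 0 were higher when any 1 of the 2F arrays was left out or the 30 min arrays were averaged.

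Total RNA with 4sU was set against total RNA before actinomycin D, which names no 4sU. No member was called at 30 min or at 60 min 2F, where 7 and 5 of 76 had an unadjusted p below 0.05 (14.8% and 14.2% of all probe sets did), and 0.181% and 0.498% of all probe sets were called lower and 0.544% and 1.36% higher. At 60 min, Mrpl54 (-1.59 ± 0.41, limma adjusted p = 0.0157) and Mrpl10 (-1.03 ± 0.32, adjusted p = 0.0345), a protein of the stalk base, were called lower, with 4.98% of all probe sets called lower and 3.49% higher. Mrpl10 had 8.01, 6.33 and 7.43 at 60 min, against 8.35, 8.25 and 8.25 before. The second of the 60 min arrays was the low one for both genes, and without it 0 members were called (-0.88 for Mrpl54 and -0.56 for Mrpl10), while 13 were called without replicate 1. With 1 of the 3 arrays before actinomycin D left out, 0 or 1 were called.

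Genes with more than 1 probe set did not always give 1 answer. In new over total RNA at 30 min, 27 members had 2 or more tested probe sets, the sign differed between them in 11, and in 7 (Mrpl13, Mrpl15, Mrpl21, Mrpl38, Mrpl52, Mrps9 and Mrps21) some probe sets were higher and others lower past the same thresholds. Mrps21, a small subunit protein with a bacterial counterpart, had means of 7.63 ± 0.18 in new and 9.51 ± 0.17 in total RNA on the probe set used (SD, n = 9 each), and 7.42 ± 0.18 in new and 3.53 ± 0.57 in total RNA on its other probe set. The changes were -1.88 ± 0.09 and 3.90 ± 0.19 (SE, limma). Mrpl15 had 5 tested probe sets beside the one used: 3 changed by -2.52 to -2.07 and 2 by 1.36 and 3.68. Mrpl13 had 2 others at -2.21 and -1.13, and 1 at 3.13. Among these 7 members, the probe sets that rose most had low means in total RNA. Those of Mrpl13, Mrpl15, Mrpl21, Mrpl52, Mrps9 and Mrps21 that changed by 2.65 or more averaged 3.40 to 4.70 there. The lowest value on any array was 1.12. In new RNA the same probe sets averaged 6.43 to 7.89. With all probe sets of a gene averaged, 33 members were called lower, all among the 53, 3 were called higher, and the median was -0.87. After 2 h of actinomycin D the sign differed in 3 of 26 such members, and none was called both ways.

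Other genes of mitochondrial translation were taken from lists by function, to be read against the 25.6% of all probe sets called lower in new RNA at 30 min and the 9.42% called lower after 2 h of actinomycin D. Of 5 genes listed as further mitoribosomal proteins, 3 were called lower in new RNA at 30 min and 0 higher (median -1.12). Mterf4 on this list is an assembly factor and not a ribosomal protein. It changed by -0.35, not called, and by -2.36 after 2 h of actinomycin D. Dap3, the GTP-binding protein of the small subunit, changed by -2.57 ± 0.12 (SE, limma adjusted p = 4.1e-13, or 0.0001 with the arrays of a set averaged). Of 8 genes tested on the list of translation factors, which also held Oxa1l and Pde12, 5 were called lower and 2 higher (median -1.45). Tufm, the elongation factor Tu, changed by -1.71 and Oxa1l, the inner membrane insertase, by -2.25. Mtrf1l, a release factor, changed by 1.27 and Pde12, a mitochondrial deadenylase, by 1.22, and after 2 h of actinomycin D these 2 changed by -1.40 and -2.58. The list of mitochondrial tRNA synthetases also held Qrsl1, Gatb and Gatc, subunits of the glutamyl-tRNA amidotransferase. Of its 12 genes tested, 5 were called lower, Gatb (-1.91) among them, and 0 higher (median -0.89).

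Of 27 assembly and RNA factors, 8 were called lower and 2 higher (median -0.54), and 5 of 29 were called lower after 2 h of actinomycin D. Trmt10c and Hsd17b10, subunits of the mitochondrial ribonuclease P, differed: Trmt10c changed by 2.06 in new over total RNA at 30 min and by -3.62 after 2 h of actinomycin D, and Hsd17b10 by -2.67 and 0.35. Ddx28, an RNA helicase of ribosome assembly, changed by 1.15 and -3.20. For comparison, 10 of 45 cytosolic ribosomal proteins were called lower and 3 higher at 30 min (median -0.74), and 74 of 78 respiratory chain mRNAs were called lower and 1 higher (median -1.89). The difference between these lists and the mitochondrial ribosomal proteins was not tested.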

How the data were processed

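RNA of NIH-3T3 cells was measured on 45 Affymetrix arrays in 11 groups. A group held 3 arrays, except that 30 min of labelling had 9 of new and 9 of total RNA. The deposited values are linear intensities. The submitters' processing notes name GCRMA, with no version given in the sources used here, and their log2 was taken. They carry no detection call or depth, and the number of arrays limits the precision. Of 31451 probe sets, 61 controls were left out, 25031 had 1 symbol, 690 several and 5669 none. All 76 members matched RefSeq symbols.

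A limma fit (version 3.58.1, R 4.3.3, lmFit and eBayes) was made per experiment, keeping probe sets whose mean log2 reached 5, with Benjamini-Hochberg adjustment over all of them. The fits were run on simulated data with noise drawn independently for each array. That simulation held no sets of arrays, so it cannot tell whether the p-values at 30 min hold. Summaries were made with pandas 2.3.3. Members named in a comparison were those called, and the 5 lowest and 5 highest among members whose mean log2 reached 7. The members, the lists of other genes and the named genes were chosen with earlier results of these data known. Alternatives were quantile normalisation, median centring, other filters, 1 fit over all arrays, averaged probe sets, 30 min arrays averaged, left out or limited to replicates 1 to 3, a replicate block and leaving out each array.

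Replicate numbers pair the samples where every same-numbered pair deviated together (correlation over 0.1): 0.143 to 0.183 for 1 h and 0.259 to 0.576 for 2 h of actinomycin D; in the 60 min experiment 0.149 to 0.299 for new and 0.219 to 0.391 for pre-existing against total RNA; 0.197 to 0.307 for labelling of 60 min against 30 min within new RNA; and 0.121 to 0.321 for 60 min total RNA against the arrays before the drug. Of these, new RNA replicate 2 and pre-existing RNA replicate 1 at 60 min did not correlate best with the total RNA array of their own number, nor did any of the 3 new RNA arrays at 60 min with that at 30 min. The labels do not say what a number marks.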

Additional observations from a re-analysis of the deposited data

Results flagged for a closer look

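On 2 probe sets a single array stood apart from the others of its group, a gap that chance alone flags in about 1 of 20 groups. Every named member was looked at in new and in total RNA at 30 min, so some flags arise by chance alone. Mrps6 in total RNA at 30 min had 10.12 on array 9 and 10.43 to 10.60 on the others, a gap of 0.634 of the range. Mrps15 in new RNA at 30 min had 9.50 on array 7 and 9.12 to 9.29 on the others, a gap of 0.537 of the range.

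The new over total change differed between 60 min and 30 min for 9 named members by the test of the difference (limma). It was higher at 60 min for Mrpl4 (1.64), Mrps12 (1.56), Mrpl12 (1.54), Mrpl54 (1.44), Mrpl49 (1.26), Mrpl43 (1.24) and Mrpl20 (1.00), and lower for Mrpl42 (-1.35) and Mrpl13 (-1.12). Between 60 min 2F and 30 min it was higher for Mrpl45 (1.30) and Mrpl1 (1.02). These calls count all 9 arrays at 30 min. With those arrays averaged in their sets, far fewer members were called at 60 min and none was higher for 60 min 2F. Leaving out 1 array gave 2 to 17 members higher at 60 min and 0 at 60 min 2F. Mrpl4 had 8.29, 6.95 and 6.52 in new RNA at 60 min and 8.35, 6.98 and 7.26 in total RNA, so replicate 1 was the high array in both. Mrps12 had 8.61, 7.57 and 7.41 in new RNA and 8.52, 6.59 and 7.71 in total RNA at 60 min. The part of these arrays in the differences was not tested.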

How the results depend on the processing

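Of the members' counts and medians, and of the subunit differences (large minus small median change), 557 values under an alternative stayed near the main value and 110 moved; among single members 2 values reversed, 113 lost a call and 112 gained one. The cause of a move was not tested. The count lower in new RNA at 30 min kept its direction under all alternatives run and ranged from 33 to 61. With each array centred on its median, 1 member was lower and 1 higher after 2 h of actinomycin D (median 0.46), the medians were -1.625 for new over total RNA at 30 min, -1.32 at 60 min 2F with 1 higher, and -0.22 for total RNA at 60 min 2F over before, 11 members were higher in new RNA at 60 min than at 30 min (median 0.60), 1 was lower in total RNA at 60 min than before, and the new over total change at 60 min minus 30 min was lower for 1 and higher for 17. With all probe sets of a gene averaged, 33 members were lower and 3 higher in new over total RNA at 30 min (median -0.87), 23 and 4 at 60 min (median -0.50) and 0 higher at 60 min 2F (median -0.76), 0 were higher at 15 min than at 30 min, 1 was lower in total RNA at 60 min than before, and 1 was lower and 1 higher for 60 min 2F minus 30 min. Mrps21 reversed there, to 1.01 at 30 min and 0.44 at 60 min. The subunit difference then was 0.085 at 2 h of actinomycin D, -0.075 for new over total RNA at 60 min, -0.20 at 60 min 2F, 0.074 for pre-existing over total RNA, 0.047 for total RNA at 60 min 2F and 0.037 for 60 min 2F minus 30 min. With Mrps18a and Mrps30 counted with the large subunit it was 0.18 for new over total RNA at 60 min, 0.22 at 60 min 2F, 0.063 for 15 min over 30 min, -0.057 for total RNA at 60 min over before and 0.071 for 60 min minus 30 min.

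With quantile normalisation the subunit difference at 60 min 2F was 0.19, 5 members were higher at 60 min than at 30 min, and 1 was lower in total RNA at 60 min. With no filter 2 were higher at 15 min, 1 was higher at 60 min than at 30 min and 1 lower in total RNA at 60 min; with a mean log2 of 7 or more 1 was lower at 15 min and 1 higher for 60 min 2F minus 30 min. With all 45 arrays in 1 fit 10 were higher in pre-existing RNA and 2 at 15 min. With the replicate number as a block, 1 was higher in pre-existing RNA and 0 at 60 min than at 30 min. No other count where the numbers pair the samples moved by over 1.5 times. Where they did not, the block gave 53 lower for new against total RNA at 30 min, and 45 lower and 2 higher at 60 min 2F. It gave 3 lower and 1 higher for 15 min against 30 min, and 0 for total RNA at 30 min and 60 min 2F. In these comparisons not every array matched its own number best, except for new against total RNA at 60 min 2F. There every array did, but the correlation of replicate 3 was 0.04. With the 30 min arrays 1 to 3 alone, 0 were higher at 60 min than at 30 min, and 0 were lower or higher for both differences against 30 min. With the arrays averaged in 3 sets, 1 was higher at 60 min than at 30 min, 1 was lower and 1 higher for 60 min minus 30 min, and 0 higher for 60 min 2F minus 30 min. Without arrays 1, 4 and 7, 1 was lower at 15 min than at 30 min (median 0.13), 2 were lower and 7 higher at 60 min than at 30 min, and 19 higher for 60 min minus 30 min.

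Leaving out 1 array at a time gave 0 to 1 higher at 1 h of actinomycin D and 1 to 3 lower at 2 h (1 without the 2 h array of replicate 1). It gave 0 to 1 higher in new over total RNA at 60 min, a median of -1.25 to -1.06 at 60 min 2F, 0 to 5 higher in pre-existing RNA, 1 to 4 lower at 15 min, 1 to 3 lower and 2 to 6 higher at 60 min than at 30 min, 0 to 13 lower in total RNA at 60 min than before, 1 to 2 lower and 2 to 17 higher for 60 min minus 30 min, and 0 higher for 60 min 2F minus 30 min. The subunit difference ranged from 0.011 to 0.08 at 1 h and -0.15 to -0.044 at 2 h of actinomycin D, -0.016 to 0.17 in new over total RNA at 60 min, -0.17 to 0.045 in pre-existing RNA, -0.23 to 0.071 for 60 min minus 30 min and 0.077 to 0.23 for 60 min 2F minus 30 min. The half-life medians ranged from 17.1 to 137 h (15.1 to 134 h large, 17.8 to 158 h small). With 3 arrays a group, low new RNA levels such as those of Mrpl14 and the loose total RNA arrays at 60 min limit what can be told.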
